A study of Arabidopsis thaliana with 6 samples.

Results

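The genes described here were bright in *Arabidopsis thaliana* stems that overexpress *CLE41* and much dimmer in wild-type stems. They were chosen by intensity on the arrays. A probe set, the group of short probes that stands for 1 transcript, was taken when its log2 intensity reached at least 9 on all 3 35S::CLE41 arrays and at least 6 on at least 1 wild-type array. Its lowest 35S::CLE41 intensity also had to be at least 2 times its highest wild-type intensity, and *CLE41* and *HAT2* were left out. The rule chose 30 of 22746 probe sets, of which 14 were tied to 1 gene by the probe table and are described below, while 16 were not listed in that table. All 14 genes, of 13355 genes measured on the arrays, had 1 probe set each. The rule used the contrast between the genotypes itself, so every difference of these 14 genes between the genotypes is a description without a test.

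Wild-type plants (WT) of ecotype Columbia were compared with 35S::CLE41 plants, which carry *CLE41* under the 35S promoter in the same background. Each genotype had 3 samples with 1 array per sample. All plants were 5 weeks old and had grown in 16 h of light and 8 h of dark, and RNA came from the lower part of the inflorescence stem (the third nearest the rosette), leaving out the 1 cm next to it. The 35S promoter, taken from a plant virus, drives expression in most tissues, so the peptide is not restricted to the cells that normally make it. The labels do not say whether the 35S::CLE41 samples come from 1 transgenic line, nor whether samples were separate plants or pools, so p-values below rest on a spread between samples that may be partly technical.

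*CLE41* encodes the peptide TDIF, a signal made in the phloem. TDIF binds PXY, a receptor kinase of the cambium, the dividing layer that forms xylem on its inner and phloem on its outer side. This signalling is known to maintain cambial divisions and to hold back xylem differentiation in stems and hypocotyls. Of the 14 genes, 1 has a name in the RefSeq gene table, *TBL36* (AT3G54260), and 13 are known there by locus only. The TBL (TRICHOME BIREFRINGENCE-LIKE) proteins are a plant family whose best characterised members add acetyl groups to wall polysaccharides such as xylan. For the 13 others no name or role is given here.

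Each array gave 1 normalized intensity per probe set, with medians between 91.9 and 101 on the 6 arrays, and their number limits the precision. The brightness of a probe set also depends on its own probes, so intensities are compared between arrays and never between genes. "Abundant" in this choice means an intensity limit, not a measured number of transcripts. *CLE41* itself read 819, 684 and 1012 in WT replicates 1 to 3 and 2461, 3402 and 2664 in 35S::CLE41 replicates 1 to 3, without overlap (log2 difference 1.77, SE 0.18; limma adjusted p = 0.0013). WT replicate 2 stood apart from its group: 365 probe sets lay at least 2-fold from the mean of the other WT arrays, where the same count for the 5 remaining arrays was 32 to 100. Of all probe sets, 14.8% passed the limma test used below, 7.93% higher and 6.86% lower in 35S::CLE41. Which direction had more calls depended on the scaling: 1803 probe sets were higher and 1561 lower as deposited, 1392 and 1975 with arrays shifted to 1 median, and 1550 and 1697 after a second quantile normalization.

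Differences large enough for the rule were rare among bright probe sets. The intensity limits were met by 3290 probe sets, and 32 of them, *CLE41* and *HAT2* included, met the ratio, which is 0.973% of the 3290 and 0.141% of all probe sets. Genotypes that did not overlap, with 35S::CLE41 higher, were found for 28.1% of the 3290 and 18.7% of all probe sets, so separation alone was common and the ratio did most of the choosing. The ratio lay between 1.5 and 2 for 83 further probe sets, 41 of them of 1 gene. Turned round, so that WT had to be bright and 35S::CLE41 lower, the same limits were met by 3208 probe sets and the rule by 79 of them, or 2.46%. Under this rule more bright probe sets were thus lower than higher in 35S::CLE41. Without *CLE41* and *HAT2* the numbers were 30 higher and 79 lower as deposited. They were 26 and 94 with arrays shifted to 1 median, and 32 and 80 with a second quantile normalization.

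**Figure D1:**
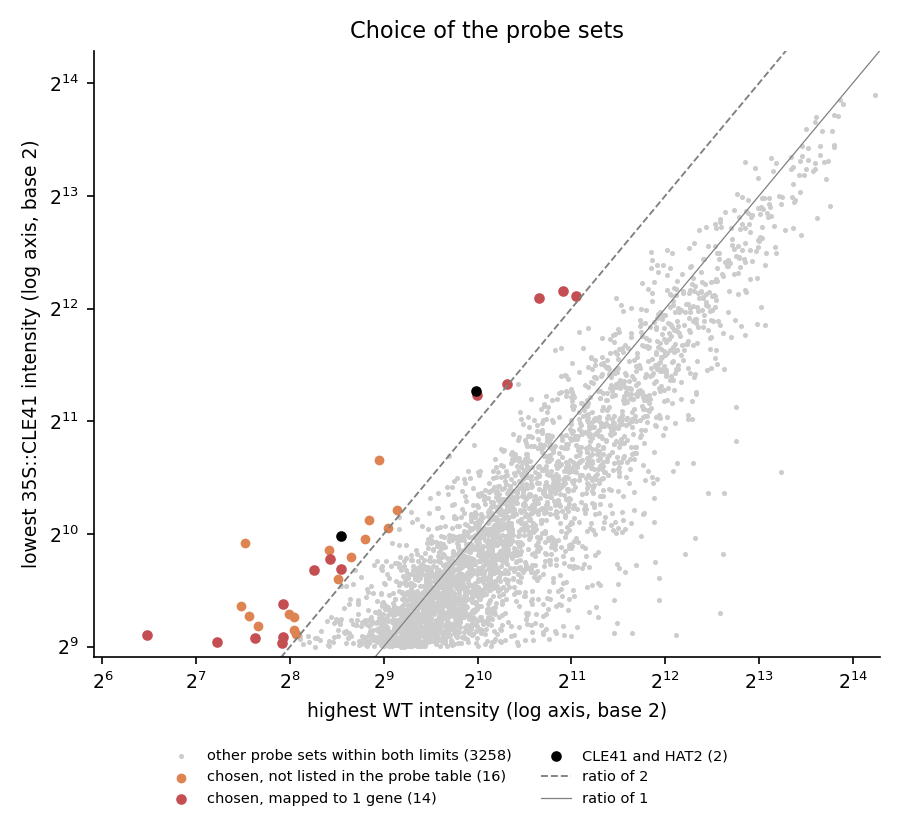
Each point is 1 of the 3290 probe sets within both intensity limits, with its highest WT intensity on the horizontal and its lowest 35S::CLE41 intensity on the vertical axis (both log axes, base 2). The dashed line marks a ratio of 2: the 14 genes and the 16 unlisted probe sets lie on or above it, and most other points gather around the solid line of equal values.

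The 14 genes were higher in 35S::CLE41 by a median of 1.75 on the log2 scale, or 3.37-fold, where the median over all probe sets was 0.0020 and that over the 3290 was 0.046. Folds here compare mean log2 intensities of the genotypes, n = 3 each. They ran from 2.56-fold to 15.8-fold: 4 genes were higher by at least 4-fold, 4 by 3-fold to 4-fold and 6 by less than 3-fold. Within 35S::CLE41 the median SD of the 14 genes was 0.14 on the log2 scale, near the 0.13 of the 3290 probe sets. Within WT the arrays spread more, with a median SD of 0.27 against 0.17 for the 3290. The SD was larger in WT for each of the 14 genes, against 63.4% of the 3290 probe sets. The rule set a lower limit for every 35S::CLE41 array but left a dim WT array free. This count may thus partly follow from the choice.

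The largest difference belonged to AT1G76960. It read 89.3, 21.6 and 47.0 in WT replicates 1 to 3 and 658, 548 and 979.6 in 35S::CLE41 replicates 1 to 3. Every 35S::CLE41 array was at least 6.14 times the brightest WT array, the widest gap among the 14 genes. That array, WT replicate 1, was the only WT array to reach the log2 limit of 6. With it left out, AT1G76960 was not chosen. The log2 difference was 3.98 (SE 0.47), or 15.8-fold, and 10.9-fold without WT replicate 2, the dimmest WT array. AT1G76960 was also the gene with the most unequal WT arrays, the highest 4.14 times the lowest, and its log2 difference ran from 3.45 to 4.47 as single arrays were left out.

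AT2G28510 read 147, 73.2 and 149.6 in WT and 527, 807 and 556 in 35S::CLE41. WT replicates 1 and 3 were nearly equal and replicate 2 was low, while among the 35S::CLE41 arrays replicate 2 was high. The log2 difference was 2.40 (SE 0.29), or 5.28-fold, and 4.18-fold without WT replicate 2, so it stayed at least 4-fold, as did AT1G76960.

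AT5G50130 read 288, 105 and 306 in WT and 1035, 1219 and 819 in 35S::CLE41. Its difference was 2.27 (SE 0.39), or 4.81-fold, and leaned on the low WT replicate 2, without which it was 3.40-fold. AT1G21000 behaved in the same way, with 243, 74.7 and 159 in WT and 554, 622 and 542 in 35S::CLE41. Its fold of 4.01 (log2 difference 2.01, SE 0.37) became 2.91 without WT replicate 2. In both genes WT replicate 2 was the low array, and the 35S::CLE41 arrays of AT1G21000 were within 1.15-fold of each other.

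Among the genes between 3-fold and 4-fold, AT2G40530 read 198, 145 and 109.8 in WT and 597, 572 and 540.1 in 35S::CLE41. Here WT replicate 2 was the middle array, and the difference of 3.88-fold (log2 difference 1.96, SE 0.20) was 3.86-fold without it. AT3G18280 read 1443, 1148 and 1609.6 in WT and 4919.8, 4382 and 5364 in 35S::CLE41. Both genotypes were bright for AT3G18280, which had its highest 35S::CLE41 value in replicate 3, and the difference was 1.81 (SE 0.15), or 3.51-fold.

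AT5G48800 read 244, 168 and 225 in WT and 671, 778 and 664 in 35S::CLE41, a difference of 1.74 (SE 0.15), or 3.35-fold. AT1G01640 read 303, 159 and 372 in WT and 852, 1002 and 827 in 35S::CLE41, a difference of 1.76 (SE 0.28), or 3.40-fold. The 2 genes had folds of like size but not of like precision: without WT replicate 2 the fold was 3.00 for AT5G48800 and 2.65 for AT1G01640.

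The remaining 6 genes had smaller folds. AT2G36950 read 343, 250.3 and 307 in WT and 876, 883 and 891 in 35S::CLE41. Its 35S::CLE41 arrays differed by no more than 1.02-fold, the narrowest spread of the 14 genes, and the difference was 1.57 (SE 0.13), or 2.97-fold. AT2G01610 read 796, 1009.8 and 1023 in WT and 2412, 2672 and 2586 in 35S::CLE41, a difference of 1.45 (SE 0.12), or 2.73-fold. It was the 1 gene whose difference was larger without WT replicate 2, at 2.83-fold, and the 1 gene for which that array lay above the mean of the other WT arrays, by 0.16 on the log2 scale.

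*TBL36* read 1862, 1557 and 1929 in WT and 4721, 4897 and 4565 in 35S::CLE41. The WT mean was a log2 intensity of 10.79 ± 0.17 (SD, n = 3) and the 35S::CLE41 mean 12.21 ± 0.05 (SD, n = 3). The difference was 1.41 (SE 0.11), or 2.66-fold, and 2.49-fold without WT replicate 2, so *TBL36* depended little on that array.

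AT1G21050 read 241, 201 and 209 in WT and 559, 593 and 524 in 35S::CLE41, a difference of 1.37 (SE 0.11), or 2.58-fold, with the smallest WT spread of the 14 genes (SD 0.14). AT4G24780 read 2119, 1709.9 and 1773 in WT and 5060.2, 5496 and 4434 in 35S::CLE41, a difference of 1.42 (SE 0.13), or 2.68-fold. AT1G25530 read 1201, 919 and 1274 in WT and 2857, 3207 and 2569 in 35S::CLE41, a difference of 1.35 (SE 0.15), or 2.56-fold. These 3 lay closest to the threshold, with ratios of the lowest 35S::CLE41 to the highest WT array of 2.18, 2.09 and 2.02. Just outside were AT1G32700 at 1.997, AT3G51670 at 1.98 and AT5G06610 at 1.92, so the threshold parts genes of nearly equal ratio. AT1G32700 had a log2 difference of 1.46, above that of AT1G25530.

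**Figure D2:**
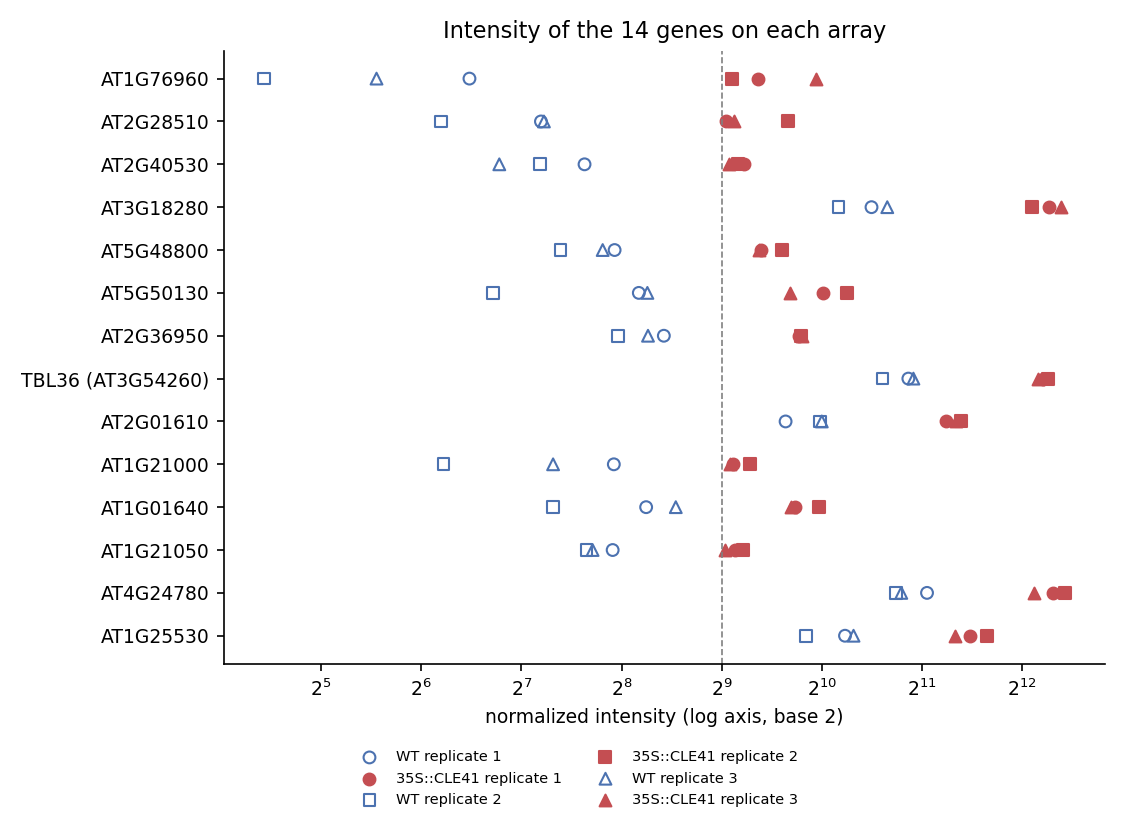
Normalized intensity (log axis, base 2) of the 14 genes on each of the 6 arrays, open blue symbols for WT and filled red symbols for 35S::CLE41, with the symbol shape giving the replicate number. The dashed line is the limit, a log2 intensity of 9, that all 35S::CLE41 arrays had to reach; the open squares of WT replicate 2 lie leftmost for 12 genes and far left of the other WT arrays for AT1G76960, AT2G28510, AT5G50130, AT1G21000 and AT1G01640.

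WT replicate 2 was the dimmest WT array for 12 of the 14 genes, against 46.4% of the 3290 probe sets and 35.6% of all. Among the probe sets chosen by the reversed rule, WT replicate 2 was the brightest WT array, the one farthest from 35S::CLE41, for 56 of 79, or 70.9%. The matching share over other probe sets was not counted, so this is a description only. WT replicate 2 lay at least 2-fold below the mean of the other WT arrays for 5 of the 14 genes, against 3.13% of the 3290. The rule limited how bright a WT array could be but not how dim, so these shares may partly follow from the choice. WT replicate 2 was the brightest WT array for 0 of the 14 genes, so it never set the ratio by which they were chosen. Leaving it out therefore could not remove any of the 14, and the rule again chose 30 probe sets. The sizes did depend on WT replicate 2. Without WT replicate 2 the difference was smaller for 13 of the 14 genes, the median fold was 2.87 in place of 3.37, and each gene stayed above 2-fold, with AT1G25530 lowest at 2.32. Within 35S::CLE41, replicate 2 was the brightest array for 10 of the 14 genes, against 37.1% of the 3290, and replicate 3 the dimmest for 9 of them, against 37.9%. *CLE41* was likewise brightest in 35S::CLE41 replicate 2, but with 3 arrays no relation between *CLE41* and these genes can be measured.

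**Figure D3:**
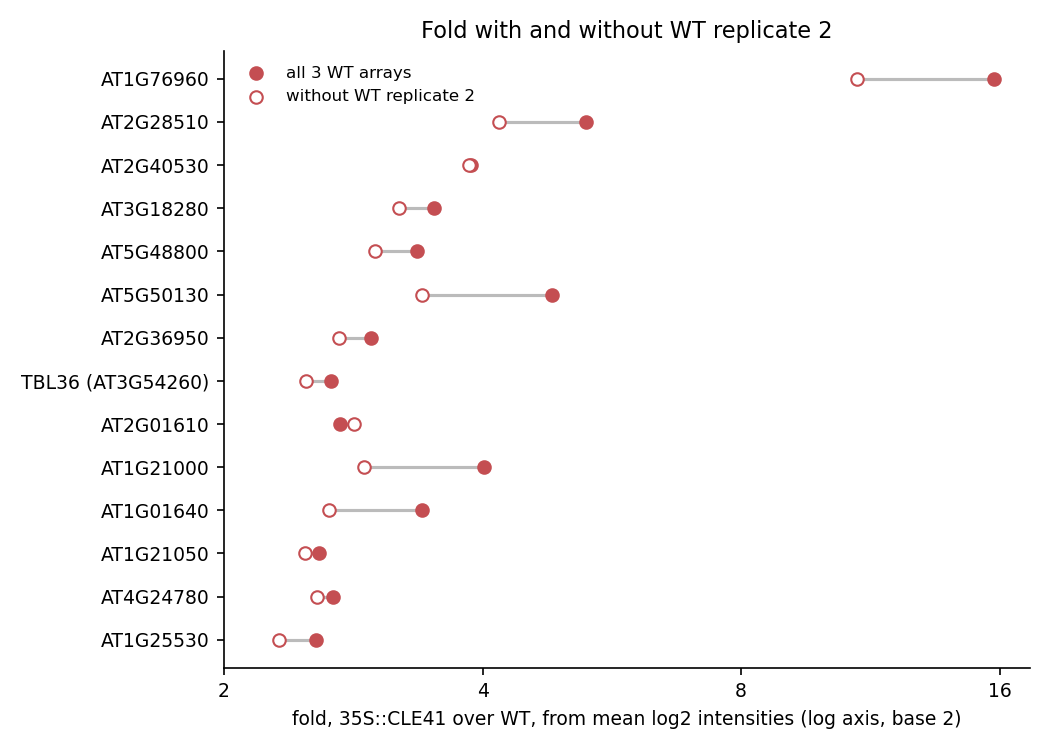
Fold of the 14 genes, 35S::CLE41 over WT (log axis, base 2), from all 3 WT arrays (filled) and without WT replicate 2 (open), each from mean log2 intensities. The open points stay above 2 for all 14 genes; the longest shifts are those of AT1G76960, AT5G50130 and AT1G21000, and AT2G40530 hardly moves.

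The 16 chosen probe sets that the probe table does not list passed the same rule, which fixed the direction and a lower bound of their folds. Their median fold was 3.72, from 2.55 to 11.2, and WT replicate 2 was the dimmest WT array for 13 of them. The widest gap was that of a probe set which read 184, 60.5 and 111 in WT and 1209, 1462 and 967 in 35S::CLE41. The most unequal 35S::CLE41 arrays were those of another, at 1615, 2973 and 4811, against 494, 111 and 317 in WT. Its brightest 35S::CLE41 array was 2.98 times its dimmest, whereas among the 14 named genes that ratio was at most 1.79.

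The family of *TBL36* was examined next. The rule had screened its other measured members too and chose none of them. A bright TBL gene with as wide a gap between the genotypes could therefore not be among them. The RefSeq table names 41 TBL genes, of which 21 besides *TBL36* were measured, that is, tied to a probe set of their own. By limma over all probe sets, with a threshold of 0.05 on the Benjamini-Hochberg adjusted p, 4 of the 21 fell and 0 rose, where 5.56% of all measured genes fell and 7.05% rose. At an unadjusted p under 0.05, 7 were lower and 0 higher. Their median log2 difference was -0.07 and 15 of the 21 differences were below 0. *TBL36* was thus the 1 measured TBL gene far above 0, which may partly follow from the choice. The genes of the family that passed the test were lower, and the rule set no limit on falls.

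*TBL45* read 941, 1057 and 741 in WT and 515, 558 and 433 in 35S::CLE41, and fell by 0.85 on the log2 scale (SE 0.16; limma adjusted p = 0.0119). *TBL35*, which encodes an acetyltransferase that acts on xylan, read 147, 199 and 164 in WT and 96.1, 78.0 and 113 in 35S::CLE41. It fell by 0.83 (SE 0.17; limma adjusted p = 0.0164). In neither gene did any WT array overlap with a 35S::CLE41 array. *TBL28* fell by 0.50 (SE 0.13; limma adjusted p = 0.0404) and *TBL15*, dim in both genotypes and so of uncertain size, by 0.61 (SE 0.13; limma adjusted p = 0.0188). At the other end *TBL38* differed by 0.35 (SE 0.26; limma adjusted p = 0.442), with 1137, 939 and 1447 in WT and 2099, 1055 and 1431 in 35S::CLE41, which overlap. *TBL45* passed the test whichever array was left out, the other 3 did not. *TBL35* was lost without 35S::CLE41 replicates 1 or 2 and *TBL15* when each of the 35S::CLE41 arrays was left out in turn (adjusted p at most 0.067). *TBL28* was lost when each array but 35S::CLE41 replicate 2 was left out (adjusted p at most 0.111), and with the replicate number as a block (adjusted p = 0.0531).

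**Figure D4:**
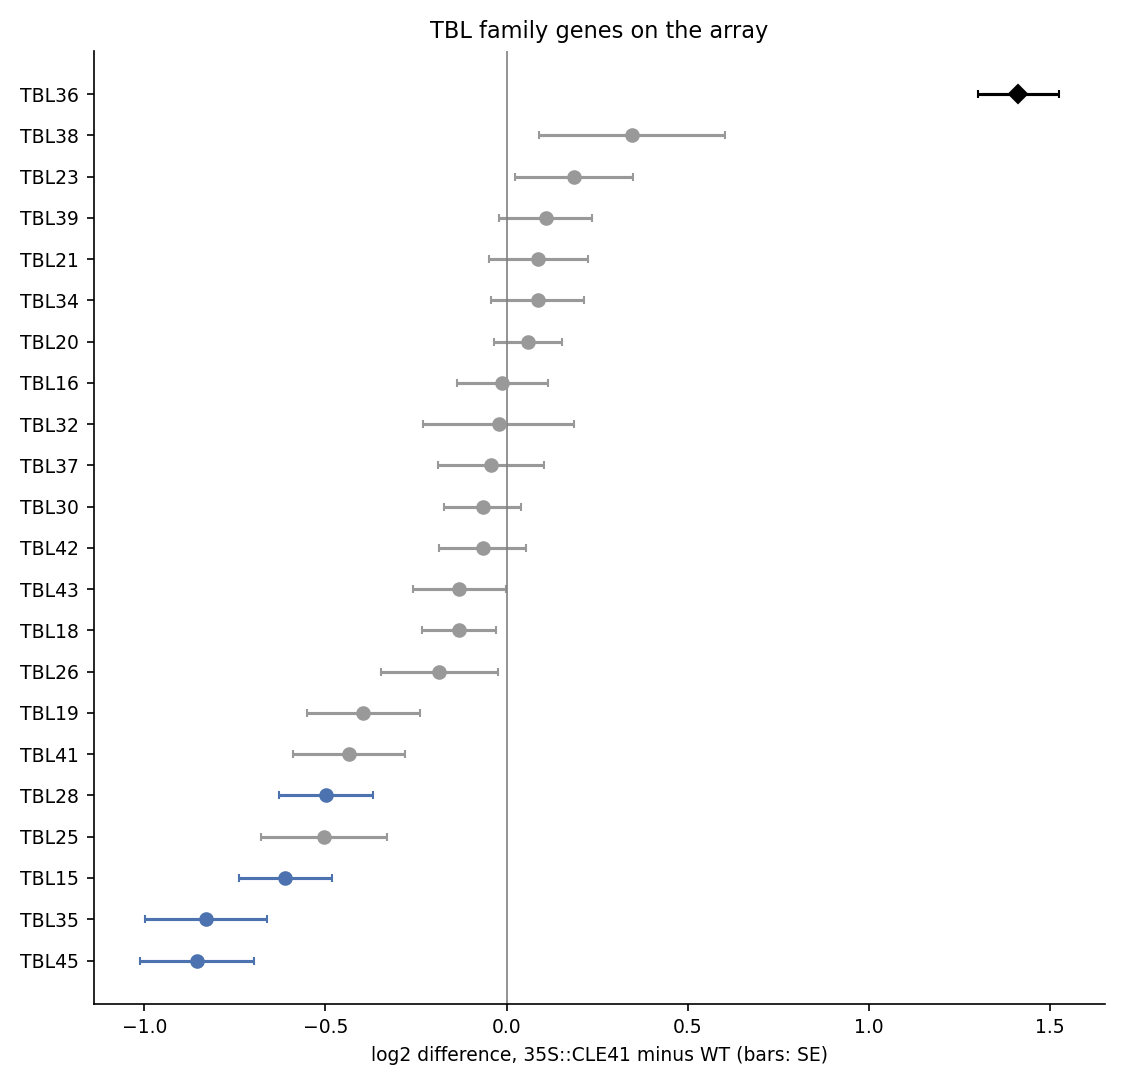
Log2 difference, 35S::CLE41 minus WT, of the 22 TBL genes measured, with bars for the SE of the limma fit. *TBL36*, chosen by its difference and not tested, is the black diamond at 1.41; blue points are the 4 genes that fell, from -0.50 to -0.85, and grey points those that did not pass the test.

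Genes beside the 14 on the chromosome were also examined. Those measured had passed through the same rule and were not chosen, which limits how far the bright ones among them could rise. By the order of protein-coding genes in the RefSeq table (TAIR10.1 assembly), the 14 genes have 27 different next neighbours, of which 13 were measured, beside 11 of the 14 genes. Of these 13, 1 rose and 1 fell, where 7.05% of all measured genes rose and 5.56% fell, so the counts lie near the shares over all genes. Their median log2 difference was -0.07. The median of 1.75 for the 14 genes followed from their choice and is no test beside it. AT2G36930, beside AT2G36950, read 567, 655 and 587 in WT and 808, 1074 and 1001 in 35S::CLE41, and rose by 0.66 (SE 0.13; limma adjusted p = 0.0151). AT3G54250, beside *TBL36*, read 233, 298 and 232 in WT and 186, 151 and 146 in 35S::CLE41, and fell by 0.66 (SE 0.14; limma adjusted p = 0.0216). Neither pair of groups overlapped, but both calls were lost without 35S::CLE41 replicate 2 or replicate 3 (adjusted p up to 0.080).

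AT1G21000 and AT1G21050, both among the 14, lie with 1 protein-coding gene between them in that table. This gene, AT1G21010, read 72.7, 65.2 and 73.6 in WT and 65.5, 78.7 and 63.3 in 35S::CLE41. The groups overlapped, and the difference was -0.03 (SE 0.12; limma adjusted p = 0.904). The 2 chosen genes thus flank a gene for which no difference was detectable with 3 arrays per genotype.

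**Figure D5:**
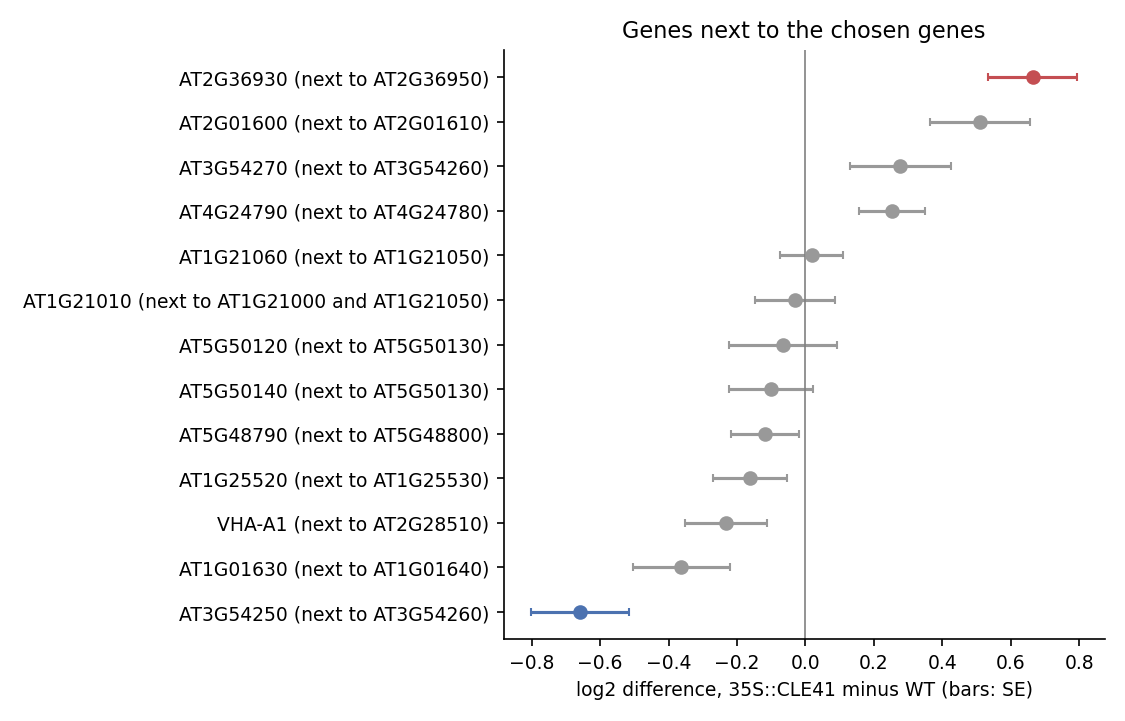
Log2 difference, 35S::CLE41 minus WT, of the 13 measured genes next to the chosen genes, with bars for the SE of the limma fit. The red point, AT2G36930 at 0.66, rose, the blue point, AT3G54250 at -0.66, fell, and the grey points did not pass the test.

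To place the 14 genes among known pathways and tissues, 14 lists with 212 genes in all were examined. The lists were chosen with earlier results of these data known, so counts over them are not an independent result. None of the 14 genes is on a list, and 39 listed genes were measured. Of these, 15 rose and 2 fell by limma (threshold of 0.05 on the adjusted p), where 7.05% of all measured genes rose and 5.56% fell. Without 35S::CLE41 replicate 2 the numbers were 8 and 2: the calls of *MOL1*, *PTL*, *HCT*, AT5G64120, *GID1C*, *WRKY53* and *STZ* were lost, at adjusted p from 0.0534 to 0.104. Of these, *MOL1*, *HCT*, AT5G64120 and *STZ* were also lost when certain other single arrays were left out, and AT5G64120 among them without WT replicate 2 (adjusted p = 0.0513) and with the replicate number as a block (adjusted p = 0.0525). The flower organ list and the redox list had no measured gene.

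Genes of several hormone lists rose. Of 7 measured auxin response genes 3 rose, with a median log2 difference of 1.13 over the list. The example is *IAA30*, an Aux/IAA repressor gene, which read 36.3, 31.4 and 38.8 in WT and 172, 167 and 269 in 35S::CLE41. *IAA29* and *IAA20* of the same family also rose, by 1.66 and 1.13. The receptor genes *GID1B* and *GID1C* rose among 3 gibberellin genes (median 0.84). The cytokinin-induced regulator gene *ARR15* and the brassinosteroid receptor gene *BRL1* rose among 3 cytokinin and brassinosteroid genes (median 1.16). Of 3 salicylate and defence genes the chitinase gene *CHI* and *WRKY53* rose (median 1.54), as did *STZ*, the 1 measured early stress gene, by 1.72. Among 3 jasmonate and ethylene genes *THI2.1* differed by -1.37 (SE 0.61; limma adjusted p = 0.181) and *EIN3* by 0.28 (SE 0.11; limma adjusted p = 0.156). *THI2.1* read 163 in WT replicate 2 against 31.0 and 26.4 in the other WT arrays, and differed by -0.53 without it (adjusted p = 0.0246). The common reference gene AT2G28390 differed by -0.33 (SE 0.12; limma adjusted p = 0.107).

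Some markers of tissues in the stem passed the test too, and their values stand beside those of the 14 genes because whole stems were sampled. In such samples fewer cells of a type and less RNA per cell cannot be told apart. Sums of intensity over a list are compared between arrays only. The brightest probe sets weigh most in them, whatever the number of transcripts, and dim markers count for little. The 5 measured xylem and lignin genes of 32 listed summed to 2324 to 5449.6 in WT, or 4757 to 5449.6 without WT replicate 2, and to 7245 to 9041 in 35S::CLE41. Of them *HCT*, *CCR2* and AT5G64120 rose, while *IRX15* and *IRX10* did not pass the test. The largest part of this sum was *HCT*, at 2519, 1249 and 2952 in WT and 5537, 5232 and 4198 in 35S::CLE41. *CCR2* was dim, at 26.7, 23.5 and 26.2 in WT, so its size is uncertain. The 3 measured cambium genes of 16 listed, without *CLE41*, summed to 444 to 462 in WT and 556 to 619 in 35S::CLE41, where *PTL* and *MOL1* rose and *CLE44* did not pass the test. The 5 measured epidermis and wax genes of 18 summed to 567 to 995 in WT, or 567 to 710 without WT replicate 2, and to 189 to 216 in 35S::CLE41. In WT this sum was mostly *WSD1*, the stem wax ester synthase gene, which fell from 536, 759 and 389 to 71.2, 52.0 and 70.8. The stomatal lineage genes *FAMA*, *SPCH*, *MUTE* and *EPFL9* did not pass the test, *EPFL9* narrowly (limma adjusted p = 0.0537, and 0.00902 without WT replicate 2). The 3 measured photosynthesis genes of 14 summed to 16716 to 19336 in WT and 13193 to 15356 in 35S::CLE41, where *SBPASE* fell by 0.66 and *RCA* and *PRK* did not pass the test. The 2 measured phloem genes of 9 summed to 138 to 155 in WT and 144 to 196 in 35S::CLE41, which overlap, and *OPS* and *SWEET11* differed by 0.41 and 0.22 (limma adjusted p = 0.383 and 0.52). *OPS* passed the test without WT replicate 2 (adjusted p = 0.0422). The part of these tissue markers in the differences of the 14 genes was not tested.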

How the data were processed

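RNA was extracted with Trizol and biotin-labelled in 2 cycles, per the labels' protocols. Each deposited column held intensity on a linear scale, normalized between arrays by the authors before deposit, as the near-equal medians show. The submitters' processing notes name RMA and limma without version or order. No source here says whether log2 values from RMA were transformed back, or which probe definition was used. The log2 of each value was analysed. No background or detection call was used, so sizes at low intensity are uncertain.

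Probe sets were named through a platform annotation table, updated by a RefSeq gene table (TAIR10.1): 13513 mapped to 1 gene (13436 found in RefSeq), 503 to several, and 8730 were not listed. No coordinates or sequences are given.

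The 14 genes, the gene lists and the rule for named genes were chosen with earlier results of these data known. That rule names every chosen gene, the 3 nearest on either side of the threshold, and per list up to 4 called genes, or the 2 with the smallest p. The neighbours, the reversed rule, *TBL38*, the 2 unlisted probe sets and the listed genes named for lost or missed calls were taken after seeing the values.

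All 22746 probe sets were fitted in R 4.3.3 with limma 3.58.1 (lmFit, eBayes, genotype as factor, two-sided, Benjamini-Hochberg). A gene with several probe sets was represented by that with the highest mean. The procedure was tested on simulated data. No pair of arrays correlated above 0.995 on the log2 scale. Same-numbered samples did not deviate together, with correlations of -0.010, 0.080 and -0.092. Alternatives were the replicate block, other scalings, filters, variance priors and limits, and leaving out each array. Figures were drawn with matplotlib 3.10.9.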

Additional observations from a re-analysis of the deposited data

How the results depend on the processing

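The direction of the 14 genes was fixed by their choice, and leaving out 1 of 3 arrays cannot move a difference by more than the spread between replicates, so neither shows stability. Their median difference ran from 1.52 without WT replicate 2 to 1.85 without WT replicate 1, and was 1.68 with arrays shifted to 1 median. The number of chosen probe sets depends on the limits by construction: it was 60 with a log2 limit of 8 in 35S::CLE41, 9 with a limit of 10, 113 with a ratio of 1.5 and 6 with a ratio of 3. Leaving out single arrays, which loosens the ratio but can make the wild-type limit harder to meet, gave 30 to 55, the highest without WT replicate 1. Without that array 13 of the 14 genes were still chosen. AT1G76960 was lost, as its other WT arrays were below a log2 intensity of 6. Leaving out single arrays gave 1699 to 2872 probe sets called in place of 3364, 10 to 19 listed genes in place of 17, 1 to 5 TBL genes in place of 4 and 0 to 2 neighbouring genes in place of 2. The lowest of these 4 counts each came without a 35S::CLE41 array. With the arrays shifted to 1 median, 41.3% of called probe sets were higher in 35S::CLE41 against 53.6% as deposited, and with a second quantile normalization 47.7%. AT1G21010 changed sign within its error, from -0.13 to 0.029 without single arrays. With the replicate block 2897 probe sets, 16 listed genes, 4 TBL genes and 2 neighbouring genes were called. The block changes no fold of the 14 genes. Of 259 alternative values of the 22 listed genes followed through every setting, 238 stayed as they were in sign and call, the test was no longer passed in 19 and newly passed in 2. Without background or detection calls, differences at low intensity, such as that of AT1G76960 in WT, are the least certain in size.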
